A study of Mus musculus with 16 samples.

Results

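The 54 mouse genes described here encode proteins of the cytosolic ribosome in its small subunit, its large subunit and the stalk of the large subunit. Their open chromatin was read from 16 peak lists of haematopoietic stem cells (HSCs), the blood-forming stem cells of bone marrow. Peaks that overlapped in any library were merged, and a region was kept if at least 2 libraries called it. A region belonged to a ribosomal protein gene if that gene was its nearest protein-coding gene, within 100 kb of the median summit on build mm10 (GRCm38). This gave 96 regions of 33773 in all, at 47 of the 54 genes, with 23 genes having 1 region and 24 having 2 or more. For each of the 47 genes a lead region was taken, whose summit lay nearest to the gene start for 37 genes and, for the other 10, whose strand was not given, nearest to either gene end.

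Chromatin accessibility was measured by Omni-ATAC-seq, in which a transposase inserts adapters into open DNA, from 10000 sorted HSCs per library. The old post group came from B6 males aged 24 months, 1 donor per replicate, as HSCs recovered 3 months after transplantation. The young post group came in the same way from B6 males aged 8 to 12 weeks, 3 to 4 of them pooled per replicate. In both, 1000 donor HSCs went with 300000 Sca-1 depleted BJ helper marrow cells into 5 lethally irradiated young BJ recipients, whose marrow was pooled. The old pre and young pre groups are the freshly isolated HSCs of those same old and young donors. Each group has 4 libraries, and a number links the post and pre libraries of a donor or pool. No donor marker is stated for the post sort, so donor, recipient and helper HSCs cannot be told apart there. Every post library was transposed on a later day than any pre library, so stage and transposition day cannot be told apart.

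A ribosome needs nearly all of these proteins in equal number, and their genes are highly transcribed in dividing cells. Their transcripts begin within a tract of pyrimidines, the terminal oligopyrimidine (TOP) motif, through which the growth kinase mTOR and the RNA-binding protein LARP1 set their translation. HSCs make little protein compared with the progenitors that arise from them, and haploinsufficiency of several ribosomal protein genes causes bone marrow failure in humans.

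The promoters below show the sequences under these regions, as 72 bases before the annotated start and 18 bases from it, printed on the strand of the gene from RefSeq (GRCm38.p6). Capitals mark runs of at least 8 pyrimidines that begin within 30 bases before the start or after it, the palindrome TCTCGCGAGA, the ETS factor core CCGGAAG, and the GC box GGGCGG or its reverse complement CCGCCC. The first 5 are the listed genes whose promoter holds the palindrome, an element of housekeeping promoters that the protein BANP binds.
Rps19, chr7:24884520-24884609, plus strand: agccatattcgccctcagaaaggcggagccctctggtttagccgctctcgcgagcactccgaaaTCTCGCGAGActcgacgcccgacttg
Rps6, chr4:86857350-86857439, minus strand: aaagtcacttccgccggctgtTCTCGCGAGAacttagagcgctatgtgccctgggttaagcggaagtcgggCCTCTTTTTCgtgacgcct
Rpl26, chr11:68901494-68901583, plus strand: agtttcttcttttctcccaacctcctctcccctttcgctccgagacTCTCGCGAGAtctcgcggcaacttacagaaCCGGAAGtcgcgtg
Rpl12, chr2:32961640-32961729, plus strand: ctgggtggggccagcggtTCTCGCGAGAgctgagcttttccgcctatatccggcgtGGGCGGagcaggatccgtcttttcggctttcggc
Rps28, chr17:33824545-33824634, minus strand: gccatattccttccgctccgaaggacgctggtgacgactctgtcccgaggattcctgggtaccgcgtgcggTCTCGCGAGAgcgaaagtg
The next 5 have a pyrimidine run near the start. Rpl13a had a peak of large area, Rpl4 and Rpl14 are among the lead regions with the smallest peak area, and the starts of Rpl15 and Rplp2 lie in regions assigned to a neighbouring gene.
Rpl13a, chr7:45128728-45128817, minus strand: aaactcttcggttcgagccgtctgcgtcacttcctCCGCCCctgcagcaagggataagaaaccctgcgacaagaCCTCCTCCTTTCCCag
Rpl4, chr9:64173315-64173404, plus strand: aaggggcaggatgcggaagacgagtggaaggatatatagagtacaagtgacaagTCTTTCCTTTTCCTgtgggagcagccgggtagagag
Rpl14, chr9:120571445-120571534, plus strand: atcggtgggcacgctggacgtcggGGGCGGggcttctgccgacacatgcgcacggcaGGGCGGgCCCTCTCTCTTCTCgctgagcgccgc
Rpl15, chr14:18270969-18271058, minus strand: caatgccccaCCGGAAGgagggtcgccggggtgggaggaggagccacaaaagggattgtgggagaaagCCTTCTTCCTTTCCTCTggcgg
Rplp2, chr7:141447579-141447668, plus strand: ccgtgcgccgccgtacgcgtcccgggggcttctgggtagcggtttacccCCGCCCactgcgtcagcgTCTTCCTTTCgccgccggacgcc

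A promoter entry, from 250 bases before to 50 bases after the start, was matched for 43 of the 54 genes. A run of at least 8 C or T between 30 bases before and 50 bases after the start was found in 32 of the 43 promoters (74.4%), against 28.0% of 17274 protein-coding genes. It was found in 24.8% of the 7500 genes whose start lay in a region called in at least 13 libraries. The palindrome TCTCGCGAGA was in 5 of the 43 (11.6%), against 0.7% of all promoters and 1.4% of those 7500. Of 20 promoters of other cytosolic ribosomal protein genes, 16 (80.0%) held the pyrimidine run and 0 the palindrome. The first base of the palindrome lay 8 bases before the start in Rps19, 51 in Rps6, 26 in Rpl26, 54 in Rpl12 and 1 in Rps28, and these starts lay in regions called in 15 or 16 libraries. CCGGAAG, on either strand, was in 37.2% of the promoters, 12.0% of all and 21.2% of the 7500. GGGCGG, on either strand, was in 55.8%, against 46.9% and 69.9%. The cyclic AMP response element TGACGTCA was in 9.3%, against 2.4% and 3.8%, CCAAT in 30.2%, against 39.4% and 42.4%, and TATAAA in 7.0%, against 13.4% and 6.3%. These are matches of letters within a window, not measured binding sites. The pyrimidine run may overlap the CCGGAAG or GGGCGG matches on the other strand.

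All 43 genes with a promoter entry had their start inside a region called in at least 13 of the 16 libraries, compared with 43.4% of the 17274 protein-coding genes with an entry. For 20 of the 43 (46.5%) that region was called in all 16 libraries, against 21.6%. Of the other 30 cytosolic ribosomal protein genes, 20 had an entry and 18 of these (90.0%) had their start in a region called in at least 13 libraries. The same share was 84.1% of 69 mitochondrial ribosomal protein genes, 91.7% of 36 genes of ribosome biogenesis and RNA polymerase I, and 96.2% of 26 genes of translation factors and other TOP transcripts. From the first listed start of each gene, the median summit lay 62 bases upstream over the 43 genes, compared with 51 over the 7500 genes. The summit lay upstream of that start in 28 of the 43 (65.1%), compared with 66.4%. The median region reached 576 bases upstream and 815 bases downstream of it. Measured from the annotated start nearest to the summit, summits ranged between 365 bases upstream at Rps25 and 130 bases downstream at Rpl22.

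**Figure D1:**
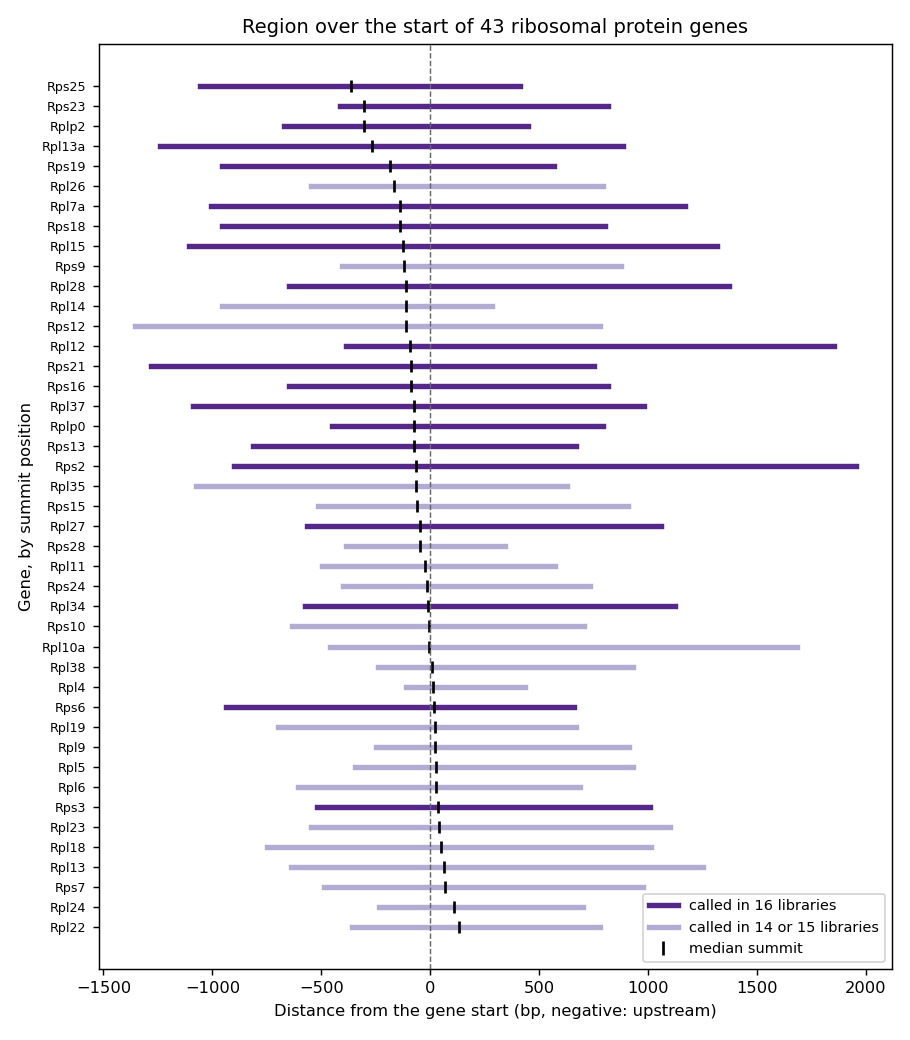
Extent of the region over the start of 43 ribosomal protein genes, in base pairs along the gene (horizontal axis), with the median summit as a tick. The start is the annotated one nearest to the summit. Dark bars are regions called in all 16 libraries and light bars those called in 14 or 15. Every bar crosses the start at 0, and the summits lie between 365 bases upstream and 130 bases downstream.

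Open chromatin at the gene itself was found at each of the 54 genes in 13 of the 16 libraries. For this count the region over the annotated start was taken, or over a gene end for the 11 genes with no entry, and for Rpl17, of chromosome 18, the lead region within the gene. Where several regions lay over the starts or ends of a gene, the one with most calls was taken, which can raise the counts. The share of all protein-coding genes was not computed by this rule. The exceptions were the 3 shortest lists, old post 4 with 52 of 54 genes, old pre 4 with 26 and young pre 4 with 49. In all, 26 genes had their region called in 16 libraries, 22 in all but old pre 4, 5 in 14 libraries and Rpl32 in 13. Rpl32 was not called in old post 4, old pre 4 and young pre 4. Rpl19 was not called in old post 4 and old pre 4, while Rpl4, Rpl6, Rpl8 and Rpl24 were not called in old pre 4 and young pre 4. The 3 lists are short as a whole, with 5328 regions called in old pre 4, 9002 in young pre 4 and 12903 in old post 4, against 15878 to 30635 in the other libraries. The read depth of the libraries is unknown, and a region without a peak was not called, which does not show that it was closed.

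**Figure D2:**
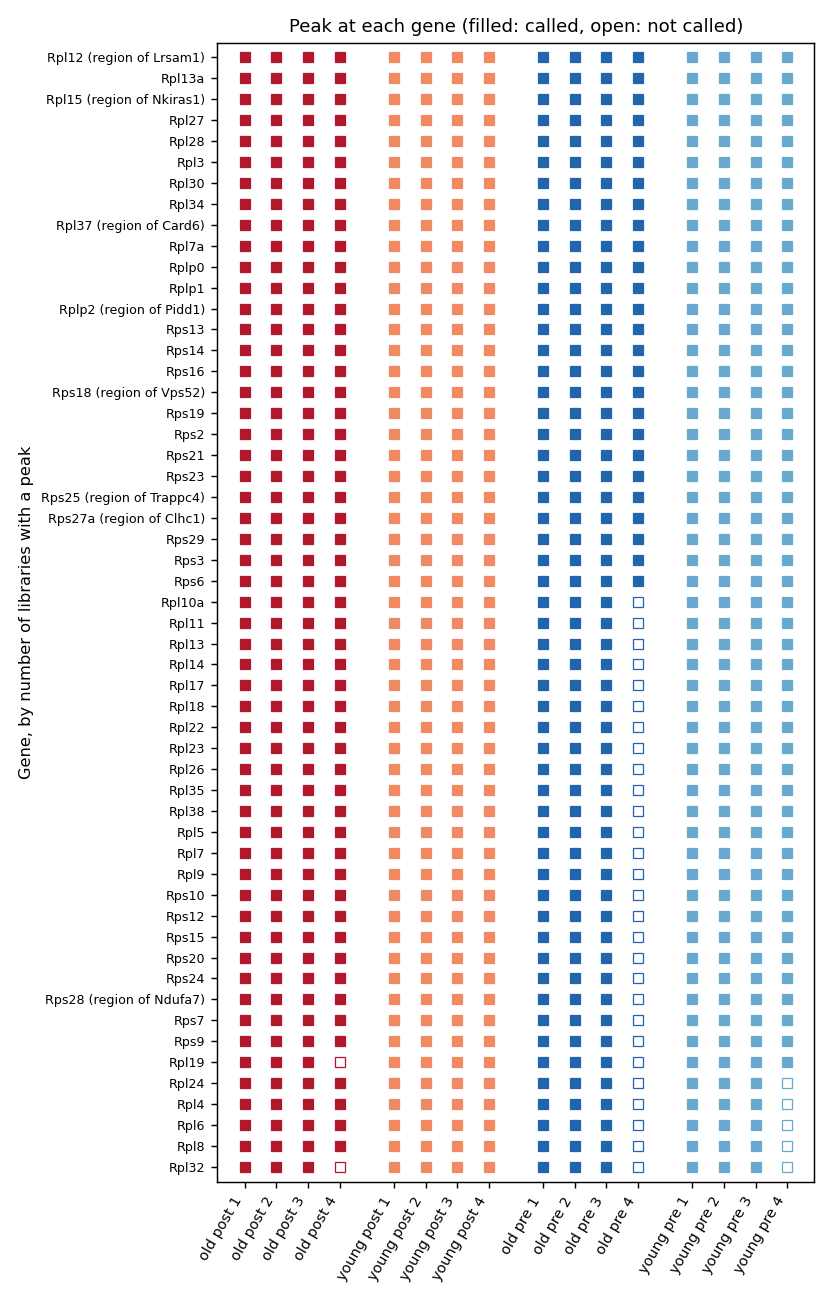
Peak at each of 54 ribosomal protein genes (rows of squares) in each of 16 libraries (columns). A filled square is a peak called and an open square none. The open squares are in old post 4 (2 genes), old pre 4 (28 genes) and young pre 4 (5 genes), the 3 shortest lists.

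For 8 genes the region over the start was assigned to a neighbour that overlaps it or shares it. Of these, 7 have no region of their own by the rule. The start of Rpl15 lies in a region of Nkiras1, that of Rpl37 in one of Card6, Rplp2 in one of Pidd1, Rps18 in one of Vps52, Rps25 in one of Trappc4, Rps27a in one of Clhc1 and Rps28 in one of Ndufa7. The start of Rpl12 lies in a region of Lrsam1. All but that of Rps28, which was called in 15 libraries, were called in all 16. These regions are not among the 96.

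Of the 47 lead regions, 42 lay within 1 kb of a gene end and 5 within the gene. They were called in all 16 libraries for 19 genes and in at least 13 libraries for 46 (97.9%), against 70.7% of all 10887 regions at gene ends. The exception was the lead region of Rpl12, a small region near the gene's far end with 5 calls. Leads missing from a list were 2 in old post 4, 27 in old pre 4 and 5 in young pre 4, besides Rpl12. The other 49 regions, 36 of them outside genes, were called far less, with 10 of 49 (20.4%) in at least 13 libraries. Together, 56 of the 96 regions (58.3%) were called in at least 13 libraries, compared with 44.8% of all regions, and 21 (21.9%) in all 16, compared with 15.6%.

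The number of the 96 regions called was 69, 83, 84 and 50 in old post 1 to 4, against 90, 86, 84 and 90 in young post 1 to 4. Before transplantation it was 67, 81, 57 and 21 in old pre 1 to 4, against 82, 71, 67 and 46 in young pre 1 to 4. The young post libraries were the most alike, and the old pre libraries the most spread. Longer lists call more regions, so each count was set against that expected if a region were called as often as all regions with the same total of calls. The count minus this expectation was 1.2, 2.8, -1.6 and -1.3 in old post 1 to 4, against 0.3, 0.2, -3.4 and 1.5 in young post 1 to 4. It was -9.3, -1.6, -0.3 and -0.4 in old pre 1 to 4, against 2.6, 5.1, 3.2 and 1.0 in young pre 1 to 4. After transplantation the ages overlapped. Before it all 4 old libraries lay below their expectation and all 4 young libraries above it. Old pre 1 was farthest from it, while old pre 3 and 4 were only 0.3 and 0.4 of a region below. The expectation uses the call totals of these same 16 libraries, so the deviations balance out over the libraries by construction. Old pre 4 called 5328 regions, 5262 of them called in all 16 libraries, which holds its value near the expectation. No test was made of this sum over the regions. On day 2, the transposition day that held both ages before transplantation, the values were -0.3 and -0.4 for old pre 3 and 4, against 2.6, 5.1 and 3.2 for young pre 1 to 3.

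**Figure D3:**
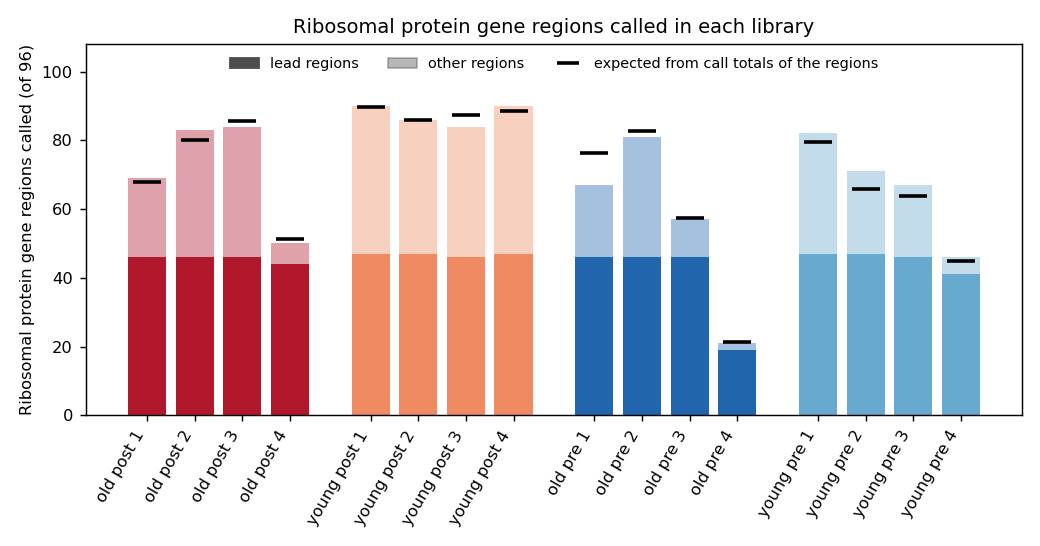
Ribosomal protein gene regions called (vertical axis, of 96) in each library, with lead regions dark and other regions light. The black dash is the number expected from the call totals of the regions. Counts run between 21 in old pre 4 and 90 in young post 1 and 4, and old pre 1 lies 9.3 below its expectation.

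The presence of single regions was tested between groups by an exact conditional test that weights each library by its odds of a call, with Benjamini-Hochberg adjustment over all regions tested and a threshold of 0.05. Only regions called in an intermediate number of libraries can be tested, so the lead regions other than that of Rpl12 dropped out. For old post against young post, 0 of 16 ribosomal protein gene regions passed, where 0.465% of 5163 regions did. All 24 that passed were called more in old post, while 13 of the 16 were called less there and 0 more. With the longer young post lists, even 0 of 4 old against 4 of 4 young calls gave p = 0.347 in this exact conditional test. A region called less in old post therefore could not pass. For old pre against young pre, 0 of 18 passed, where 0.0% of 9407 did. Of the 18, 14 were called less in old pre and 2 more, against 40.4% of all regions tested called less. As no region passed at all, this result says nothing particular about the 18. For post against pre, 0 of 36 passed, where 0.402% of 15182 did. Of the 61 that passed, 60 were called less in post and 1 more, while 32 of the 36 were called more in post and 0 less. The test thus had little reach in the direction these 36 took. At an unadjusted p under 0.05 the counts were 0 of 16, 0 of 18 and 1 of 36, against 1.84%, 2.29% and 5.62% of all regions tested. Limma on presence, which does not allow for list length, gave 5 of 16, 0 of 18 and 11 of 36, where it called 2027 of 5163, 0 of 9407 and 3487 of 15182 regions.

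Among the less frequent regions, 16 of 96 (16.7%) had a peak in each library of 1 group and in at most 1 library of another, against 21.1% of all regions. All 16 were called in every young post library, the group with the longest lists, as were 7119 of the 7126 such regions in the series. They lay at Rplp1 (4 regions), Rps14 (3), Rpl3 (2), Rpl19, Rpl24, Rpl26, Rpl34, Rpl38, Rps13 and Rps24. Of these, 2 had no peak in any old post library and a peak in each young post library, a pattern that 513 regions of the series show. They lay 73592 bases from Rpl34 and 7212 bases from Rps14 (exact conditional test, p = 0.347 each). The test gives every region with this split the same p, so none of them could pass.

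Rplp1, which encodes an acidic protein of the ribosomal stalk that recruits translation factors, had 10 regions, the most of any listed gene, reaching 82875 bases away. Its lead region was called in all 16 libraries and a region 39867 bases away in 15. A region 30813 bases away (chr9:61882167-61882588) had a peak in 2 old post libraries and all 4 young post libraries, and in no old pre or young pre library. For post against pre that is 6 of 8 against 0 of 8 (exact conditional test, p = 0.0588, adjusted p = 0.71). These distal regions are named by distance alone, and no link to Rplp1 was measured. The other distal regions with the most calls were 2960 bases beyond Rpl12 and 8136 bases from Rpl14, called in all 16 libraries, and 2577 bases from Rpl14 and 7393 bases from Rps10, called in 15.

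Peak size was compared as the percentile of peak area, a score from the peak caller that sums significance over the peak, within a library among the 5262 regions called in all 16 libraries. A percentile is used because the areas are not normalised between libraries. It says where a region ranks within a library, and a change can come from the region or from those around it. In bulk libraries, fewer cells with open chromatin at a region and less opening per cell cannot be told apart. The 21 ribosomal protein gene regions called in all 16 libraries are those that could be ranked, so they are not all members. Their median percentile was 45.6, against 50.2 for all 5262 regions and 51.9 for the 3448 of these at gene ends, and 9 of 21 lay above 50. Their median width was 1372.5 bp, against 1324 bp. In the 13 libraries other than the 3 shortest lists, 55 regions could be ranked among 14499, with a median percentile of 57.4 for all 55 and 58.6 for the 46 leads, against 58.4 for gene-end regions.

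Genes of the small subunit spanned the whole range. Rps29 ranked highest, at 87.4, 87.5, 87.1 and 90.3 in old post and 82.5, 85.0, 83.5 and 84.5 in young post. It had 84.3, 84.1, 81.7 and 87.0 in old pre and 82.0, 83.2, 86.6 and 86.3 in young pre. Rps29 encodes a zinc-binding protein of the small subunit. Each old post library was above each young post library, while the pre groups overlapped. The difference was 4.21 ± 1.72 points (SE) for old post minus young post (limma adjusted p = 0.918) and -0.29 ± 1.72 for old pre minus young pre (adjusted p = 0.992). Over 16 libraries the peak area of Rps29 itself lay between 748.8 and 3918.2.

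Rps6, the substrate of the S6 kinases downstream of mTOR, ranked lowest. It stood at 4.6, 9.2, 13.2 and 11.1 in old post and 14.5, 12.6, 7.3 and 10.7 in young post. It had 19.9, 22.5, 8.0 and 10.9 in old pre and 19.6, 26.2, 14.5 and 19.2 in young pre. Post libraries tended to lie below pre libraries but overlapped them, with group means of 9.5 ± 3.7 in old post, 11.3 ± 3.1 in young post, 15.3 ± 6.9 in old pre and 19.9 ± 4.8 in young pre (SD, n = 4 each). The difference for post minus pre was -7.19 ± 2.29 points (limma adjusted p = 0.107), and without old pre 3 it passed, at -8.54 ± 2.10 (adjusted p = 0.0451).

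Rps19, the gene most often mutated in Diamond-Blackfan anaemia, stood at 80.6, 75.1, 68.5 and 80.9 in old post and 70.0, 65.5, 69.0 and 71.0 in young post. It had 69.9, 69.7, 73.0 and 73.3 in old pre and 60.1, 61.0, 70.5 and 79.3 in young pre. The ages overlapped at both stages, and the differences were 7.40 ± 3.91 points after transplantation (limma adjusted p = 0.918) and 3.78 ± 3.91 before it (adjusted p = 0.912). Rps14, whose loss drives the anaemia of the 5q- syndrome, averaged 46.8 ± 5.3 in old post, 54.9 ± 8.8 in young post, 54.6 ± 10.1 in old pre and 60.1 ± 6.5 in young pre (SD, n = 4 each). Its post minus pre difference was -6.51 ± 3.45 points (adjusted p = 0.344).

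Rps13, a protein of the small subunit, had the largest negative age difference before transplantation. It stood at 22.6, 32.0, 23.7 and 24.4 in old pre, against 38.5, 47.4, 29.5 and 38.4 in young pre. Only old pre 2 reached into the young range. The difference was -12.8 ± 3.51 points (limma adjusted p = 0.108). On day 2, old pre 3 and 4 had 23.7 and 24.4, against 38.5, 47.4 and 29.5 in young pre 1 to 3. Old pre 3 and 4 are the shortest old pre lists, so age and list length cannot be told apart on day 2. With day as a covariate Rps13 did not pass. After transplantation it averaged 24.4 ± 3.7 in old post and 29.1 ± 4.9 in young post (SD, n = 4 each), a difference of -4.64 ± 3.51 (adjusted p = 0.918), and the change of the age difference with stage was 8.14 ± 4.57 (adjusted p = 0.811).

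Rps23, a protein of the decoding centre, was among the most variable, between 10.7 and 50.6 over the libraries. It averaged 38.2 ± 13.3 in old post, 24.4 ± 8.9 in young post, 26.1 ± 13.6 in old pre and 31.7 ± 11.4 in young pre (SD, n = 4 each). Its age difference was 13.8 ± 7.79 points after and -5.63 ± 7.79 before transplantation, a change of 19.4 ± 10.1 between stages (limma adjusted p = 0.762). Rps16 averaged 25.0 ± 1.4 in old post and 15.4 ± 6.0 in young post, and differed by 9.64 ± 4.52 points (adjusted p = 0.918). Rps3 averaged 20.1 ± 5.5 in old post and 15.4 ± 4.9 in young post, and 21.0 ± 8.7 in old pre and 27.9 ± 3.2 in young pre, with a change of 11.6 ± 5.31 points between stages (adjusted p = 0.67). Rps2 and Rps21 had medians of 58.8 and 74.2 over the libraries. None of these differences passed.

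In the large subunit, Rpl13a, which in human monocytes also silences inflammatory transcripts, ranked highest, at 78.6, 80.2, 79.9 and 90.5 in old post, against 77.6, 80.8, 79.0 and 79.8 in young post. It had 78.7, 77.3, 83.8 and 89.4 in old pre, against 73.7, 70.7, 78.3 and 86.3 in young pre. The number 4 libraries were highest in old post, old pre and young pre, and these are the 3 shortest lists. Its age difference was 3.01 ± 3.58 points after and 5.03 ± 3.58 before transplantation (limma adjusted p = 0.941 and 0.78). With day as a covariate the difference before transplantation was 12.4 ± 3.27 and passed (adjusted p = 0.0392). In that setting 2 of 21 ribosomal protein gene regions passed, and 738 of all 5262 regions. The pre comparison then rests on day 2, where old pre 4, the shortest list, had 89.4. Rpl30 had a median of 71.2, Rpl34 of 58.2 and Rpl27 of 47.1.

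Rpl28 stood at 10.7, 14.0, 29.1 and 21.8 in old post and 17.7, 28.7, 24.0 and 28.4 in young post. It had 23.2, 41.3, 28.6 and 42.4 in old pre and 40.4, 34.7, 35.3 and 24.1 in young pre. No post library exceeded 29.1 and no pre library was below 23.2, so the stages overlapped in part. The post minus pre difference was -12.0 ± 3.45 points (limma adjusted p = 0.079), the smallest adjusted p of the 21 regions for stage. It passed without old post 3 (-13.8 ± 3.23, adjusted p = 0.0375), old pre 1 (-13.5 ± 3.43, adjusted p = 0.0485) or young pre 4 (-13.7 ± 3.35, adjusted p = 0.0394).

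Rpl7a averaged 35.7 ± 10.2 in old post and 49.6 ± 4.9 in young post, and 42.9 ± 8.2 in old pre and 53.8 ± 8.0 in young pre (SD, n = 4 each). The old mean was the lower at both stages, by -13.8 ± 5.44 points after (limma adjusted p = 0.918) and -10.9 ± 5.44 before transplantation (adjusted p = 0.555). Rpl3, a core protein of the peptidyl transferase centre, ranged between 14.7 and 49.0, and its age difference before transplantation was -11.0 ± 7.16 points (adjusted p = 0.725). On day 2 it stood at 15.6 and 14.7 in old pre 3 and 4, against 49.0, 48.0 and 41.3 in young pre 1 to 3. Old pre 1 and 2, of day 1, had 46.4 and 38.2. Young pre 4, of day 3 and the shortest young pre list, had 20.6. Old pre 3 and 4 are the shortest old pre lists, with 15878 and 5328 regions called. Young pre 1 to 3 had 19734 to 26769, so age and list length cannot be told apart on day 2. With day as a covariate the age difference before transplantation was -30.9 ± 3.55 (limma adjusted p = 0.00283), and the pre comparison then rests on day 2. In that setting 738 of all 5262 regions passed.

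Of the stalk genes, Rplp0 averaged 25.3 ± 7.7 in old post, 31.8 ± 6.0 in young post, 41.5 ± 12.7 in old pre and 40.9 ± 14.2 in young pre (SD, n = 4 each), and post minus pre was -12.6 ± 4.74 points (limma adjusted p = 0.166). Rplp1 averaged 32.1 ± 8.6, 33.1 ± 5.6, 39.4 ± 7.7 and 42.6 ± 4.7 in the same groups, with -8.40 ± 3.06 (adjusted p = 0.152). Rplp2, the third stalk gene, shares its region with Pidd1, whose percentile had a median of 42.6. The other shared regions had medians of 77.3 at Rpl15, 72.6 at Rpl37, 69.8 at Rps25, 50.5 at Rps27a, whose product is a fusion with ubiquitin, 36.0 at Rpl12 and 32.6 at Rps18. None of these 7 shared regions passed a test of age or stage.

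**Figure D4:**
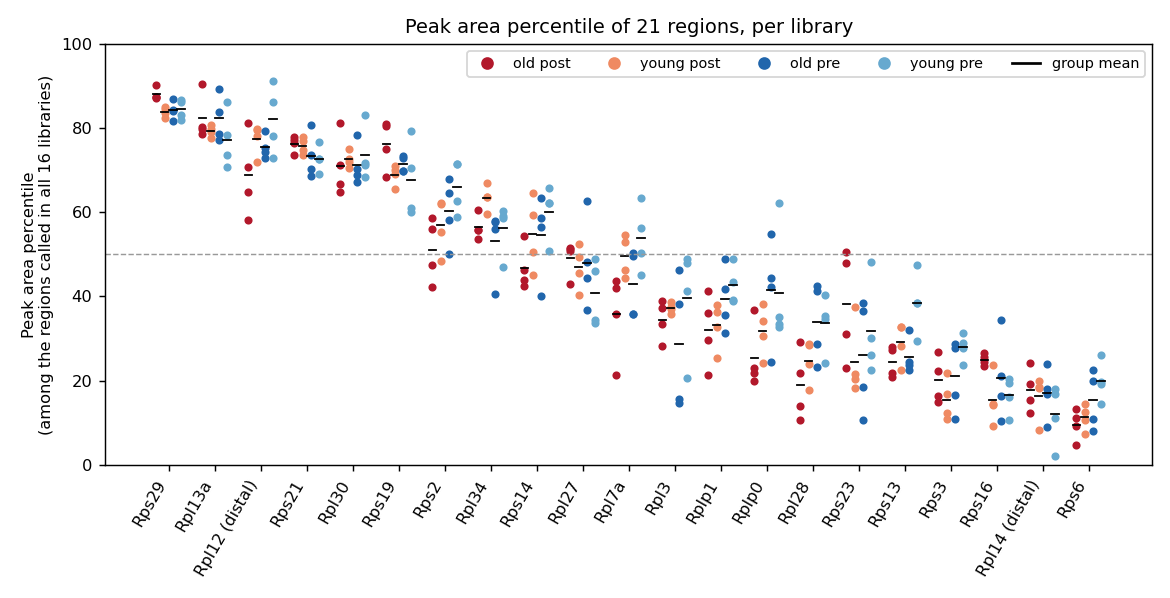
Peak area percentile (vertical axis, 0 to 100, among 5262 regions) of the 21 ribosomal protein gene regions called in all libraries, with 1 point per library and a bar at each group mean. The dashed line is at 50. Regions run between Rps29, with a median of 84.7, and Rps6, with 12.9.

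For old against young after transplantation, 0 of 21 regions passed in area percentile (limma, Benjamini-Hochberg over 5262 regions), where 0.0% of all regions did, and 2 had an unadjusted p under 0.05, Rpl7a and Rps29, against 4.96% of all regions. The largest positive differences among lead regions were at Rps23, Rps16 and Rps19, and the largest negative at Rpl7a, Rps14 (-8.12 ± 5.31) and Rpl34 (-7.09 ± 3.94). For old against young before transplantation, 0 of 21 passed, where 1.35% of all regions did, and Rps13 alone had an unadjusted p under 0.05, against 10.1% of all regions. The largest positive differences were at Rpl27 (7.26 ± 5.02), Rpl13a and Rps16 (3.85 ± 4.52, but -6.17 with day as a covariate and -0.77 without old pre 2), and the largest negative at Rps13, Rpl3 and Rpl7a. The median difference over the 21 was -1.55 points after and -3.11 before transplantation, against 0.64 and -0.02 over all regions.

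For post against pre, 0 of 21 passed, where 3.86% of all regions did. At an unadjusted p under 0.05 there were 7 of 21, against 18.4% of all regions in both directions together. All 7 were lower after transplantation: Rplp0, Rpl28, Rps2 (-9.11 ± 3.13), Rplp1, Rps6, Rps3 (-6.70 ± 2.65) and Rps13 (-5.31 ± 2.28). The share of all regions by direction was not computed at this threshold. Of the 21, 11 were lower and 10 higher, against 50.5% of all regions lower, and the median difference was -0.54, against -0.05 over all regions. The largest positive differences were at Rpl34 (5.30 ± 2.56), Rpl27 (3.64 ± 3.27) and Rps21 (3.04 ± 1.66). For the change of the age difference with stage, 0 of 21 passed, where 0.038% of all regions did, and Rps3 alone had an unadjusted p under 0.05, against 7.3% of all regions. Here the largest positive values were at Rps23, Rps3 and Rpl3 (8.22 ± 9.31) and the largest negative at Rplp0 (-7.02 ± 9.48), Rpl28 (-6.09 ± 6.90) and Rpl27 (-5.04 ± 6.53). A p above the threshold does not show that the groups were alike, and the standard errors of the age differences ran between 1.72 points at Rps29 and 7.79 at Rps23.

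**Figure D5:**
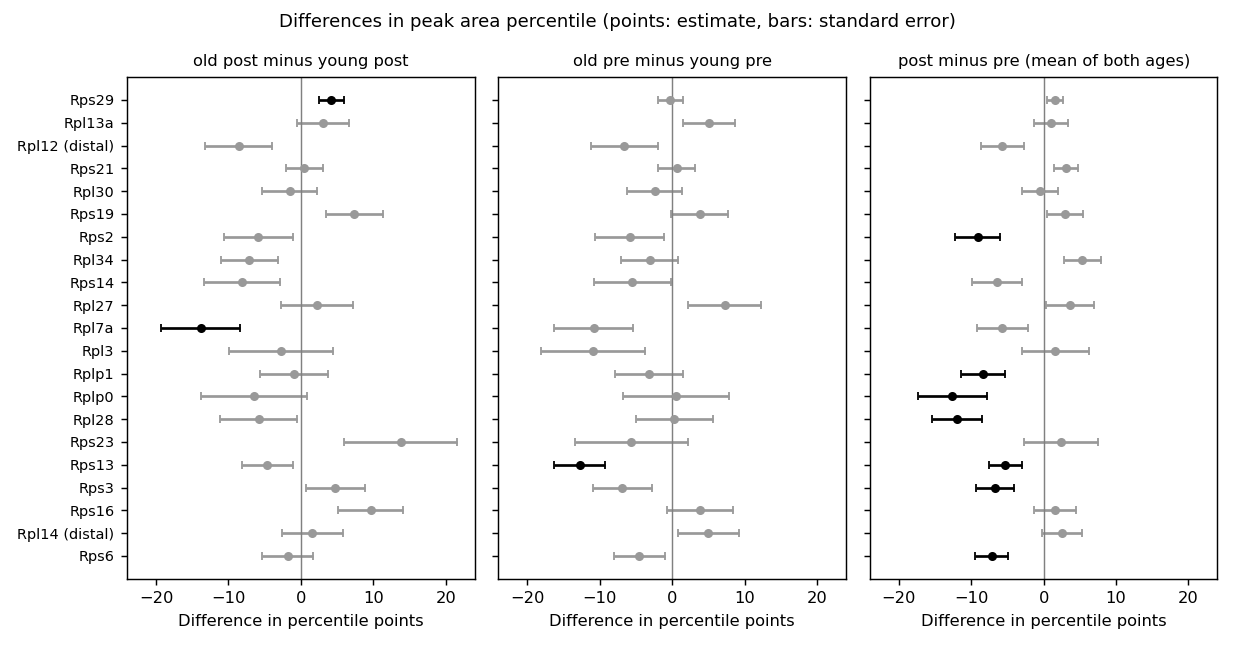
Difference in peak area percentile (horizontal axis, percentile points, with standard error bars) for old post minus young post, old pre minus young pre and post minus pre at the 21 regions. Black marks an unadjusted p under 0.05, of which there are 2, 1 and 7, and no region passed after adjustment over all 5262 regions.

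Peak width, as log2 of the base pairs covered minus the library median, was tested in the same way. Of the 21 regions, 0 passed after transplantation, where 0.0% of all did, 0 before it, where 0.0% did, and 0 for stage, where 0.019% did. Unadjusted p values under 0.05 numbered 1, 2 and 4 of 21 in these comparisons, against 2.93%, 5.49% and 11.9% of all regions. Rps2, a protein at the entry of the mRNA channel, was the widest, at 1490, 1650, 2583 and 912 bp in old post and 2091, 2330, 2227 and 2412 bp in young post. It covered 1350, 2298, 942 and 561 bp in old pre and 2782, 2232, 2144 and 911 bp in young pre. The shortest list of each of 3 groups gave its narrowest peak, and the log2 difference for old pre minus young pre was -0.56 ± 0.20 (limma adjusted p = 0.653). With day as a covariate it was -0.92 ± 0.21 and passed (adjusted p = 0.04). Rps2 was then 1 of 132 regions past the threshold.

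Without the 3 shortest lists, the groups are 3 old post, 4 young post, 3 old pre and 3 young pre libraries, and 55 ribosomal protein gene regions could be tested among 14499. For post against pre, 3 of 55 passed, where 9.34% of all regions did. In the mean of both ages all 3 were lower after transplantation, where 4.57% of all regions passed as lower. Rpl4, which lines the exit tunnel for nascent protein, stood at 12.5, 9.8 and 7.9 in old post and 12.1, 8.0, 7.7 and 9.9 in young post. It had 16.8, 21.3 and 21.9 in old pre and 22.8, 34.0 and 23.5 in young pre, so the stages did not overlap. It fell by 13.6 ± 2.02 points (SE, limma adjusted p = 0.00387). Its region, of 500.5 bp in median width, also lies within 1 kb of an end of Zwilch.

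Rpl8, a protein of the peptidyl transferase region, stood at 39.1, 41.7 and 51.0 in old post and 52.2, 49.0, 44.0 and 49.7 in young post. It had 58.7, 64.5 and 56.1 in old pre and 59.0, 66.2 and 58.7 in young pre. The stages did not overlap, and Rpl8 fell by 14.2 ± 2.50 points (limma adjusted p = 0.00814). Both Rpl4 and Rpl8 lacked a peak in old pre 4 and young pre 4, so they could not be ranked with all 16 libraries. The median post minus pre difference was -2.34 over the 55 regions, with 19 higher and 36 lower. Over all 14499 regions it was 0.21, and 47.5% were lower. Old pre minus young pre gave the same split of the 55, with a median of -2.75. Over all regions that median was -0.18, and 51.8% were lower.

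Rpl17, another protein of the exit tunnel, stood at 34.0, 34.6 and 31.4 in old post and 45.3, 35.5, 43.0 and 43.5 in young post. It had 51.7, 51.0 and 55.8 in old pre and 43.1, 38.3 and 34.6 in young pre. Old was above young before transplantation and below it afterwards, with no overlap at either stage. Its percentile before transplantation rose by 14.2 ± 2.84 points in old over young HSCs (limma adjusted p = 0.0162). In the mean of both ages it fell by 8.15 ± 2.00 post against pre (adjusted p = 0.0309). By age the group means changed by -19.46 points in old and 3.13 in young HSCs. After transplantation old minus young was -8.46 ± 2.66 (adjusted p = 0.668), and the change of the age difference with stage was -22.6 ± 4.01 (adjusted p = 0.083). On day 2, old pre 3 had 55.8, against 43.1, 38.3 and 34.6 in young pre 1 to 3. The list of old pre 3 is the shortest of these.

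A region 7393 bases from Rps10 (chr17:27642340-27643590) stood at 8.0, 11.6 and 4.4 in old pre, against 48.3, 41.3 and 23.9 in young pre. It was the other of 2 of 55 regions past the threshold before transplantation, where 6.65% of all regions passed, and it was lower in old, at -29.8 ± 6.38 points (limma adjusted p = 0.0209). It had 17.4, 39.2 and 30.7 in old post, against 40.4, 44.5, 47.2 and 50.2 in young post, so every old post value lay below the young post ones, a difference of -16.5 ± 5.97 that did not pass (adjusted p = 0.743). The lead region of Rps10 averaged 50.4 ± 3.8 in old pre and 47.2 ± 6.4 in young pre (SD, n = 3 each). After transplantation 0 of 55 regions passed, where 0.0483% of all did, and 4 had an unadjusted p under 0.05, against 5.9% of all. For the change with stage 0 of 55 passed, where 0.0759% did, and 3 had an unadjusted p under 0.05, against 11.2% of all. The unadjusted counts were 12 of 55 for age before transplantation, against 22.1% of all regions, and 14 of 55 for stage, against 25.1%. In width, 0 of 55 passed in the post, pre and stage comparisons, where 0.0%, 0.352% and 0.338% of all regions did, and 4, 8 and 4 had an unadjusted p under 0.05, against 3.61%, 12.4% and 14.1%.

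Other listed genes known in blood and ribosome biology were ranked only in these 13 libraries. Rpl5 and Rpl11, which with the 5S RNA bind Mdm2 and release p53, had medians of 43.3 and 45.7. Rpl5 averaged 49.2 ± 7.1 in old post (n = 3), 41.7 ± 3.3 in young post (n = 4), 36.2 ± 5.1 in old pre (n = 3) and 44.2 ± 3.3 in young pre (n = 3), each with SD. Rpl22, whose loss impairs T cell development in mice, had a median of 48.5, Rpl24 of 37.7, Rpl38, which acts in patterning of the mouse skeleton, of 71.2 and Rpl10a of 48.9. The lowest lead regions were Rpl4 at 12.5, Rpl32 at 30.8 and Rpl14 at 35.1, and the highest was Rps29 at 93.9. None of Rpl5, Rpl11, Rpl22, Rpl24, Rpl38 and Rpl10a passed a test at their lead regions.

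RefSeq places 40 snoRNA genes, whose products guide modification of other RNAs, inside 20 of the 54 genes, so their chromatin is shared with those RNAs. At 4 lead regions the end of another gene lies within 1 kb, Med22 at Rpl7a, Sphk2 at Rpl18, Lias at Rpl9 and Zwilch at Rpl4. Ribosomal protein genes have many processed copies elsewhere in the genome, and how reads that match several places were treated is not given in the sources used here. As a check of the sorted cells, 8 of 12 HSC marker genes had a region at a gene end and 3 to 8 were called per library, with none at Hlf, Mecom, Ly6a and Slamf1. None of the 14 T cell, B cell, granulocyte and monocyte markers had one in any library, and neither had Alas2, Hba-a1, Slc4a1, Cdh5 or Lepr, while the erythroid marker Epor was called in every library. Of the 3 megakaryocyte markers 1 to 3 were called per library, and of Pecam1 and Cxcl12 0 to 2. The part of other cells in these results was not tested.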

How the data were processed

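The authors deposited 1 narrowPeak list per library, with no header. Per the submitters' processing notes, FastQC, MultiQC, Trim Galore, cutadapt and Genrich were used on mm10; the aligner, all versions and the settings are not stated in those notes or the labels. Column 7 of the deposited lists is a score, the peak area, at least 200 in every file, and is not normalised between libraries. The deposited -log10 p and q columns were read but not compared. Lists held 5711 to 32557 peaks, and 393 of 387029 off chromosomes 1 to 19 and X were left out.

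Peaks were merged at 1 bp of overlap. Nearest genes came from the RefSeq table of GRCm38.p6, and promoters from its promoter table. Area percentiles and centred log2 widths were fitted with limma 3.58.1 in R 4.3.3 as 4 group means over all 16 libraries, with donor as a random block, and adjusted by Benjamini and Hochberg over all regions. Donor pairs come from the series design, and the correlation of paired deviations ran from -0.204 to 0.566. For post and pre libraries of the same age but different donors it ran from -0.496 to 0.56, so these values do not single out the pairs. Presence was tested by an exact conditional test with libraries weighted by a Rasch model, 2-sided, which counts the libraries of a donor as independent. The code was tested on simulated data. Other work used Python 3.11.15, pandas 2.3.3, numpy 2.4.6 and matplotlib 3.10.9.

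Members and lists were chosen with earlier results of these data known. Named were regions past a threshold, the 3 largest differences per direction among lead regions, genes known in blood and ribosome biology, the highest and lowest regions, and those not called throughout.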

Additional observations from a re-analysis of the deposited data

Results flagged for a closer look

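In a group of 4 libraries, a value was set apart where its gap to the nearest other, as a share of the group's range, passed Dixon's critical value, which chance gives in about 1 of 20 groups; 13 of 100 groups examined had one. Lead regions called numbered 44 in old post 4 against 46 in the other old post libraries, 46 in young post 3 against 47, 19 in old pre 4 against 46, and 41 in young pre 4 against 46 to 47. These are short counts with ties, and 3 of the 4 are the shortest lists. The count of the 96 regions minus its expectation was -9.3 in old pre 1, against -1.6 to -0.3 in the other old pre libraries.

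In area percentile, old post 4 stood apart at Rps29 (90.3, against 87.1 to 87.5) and Rpl13a (90.5, against 78.6 to 80.2), and old post 1 at Rpl27 (43.0, against 50.8 to 51.5). Young post 4 stood apart at Rps23 (37.6, against 18.3 to 21.5) and at the distal Rpl14 region (8.3, against 18.2 and more). Rpl34 was low in old pre 4 (40.6, against 56.0 to 57.9) and in young pre 4 (47.0, against 58.6 to 60.2), and Rplp0 was high in young pre 4 (62.2, against 32.8 to 35.1). Of these 8 values, 5 are in the 3 shortest lists; the part of list length in them was not tested.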

How the results depend on the processing

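Without the donor as replicate block, in the pairing of post with pre libraries, 117 regions passed for stage in area percentile against 203 with it, 0 against 2 for the interaction and 0 against 1 for stage in width, with 0 ribosomal protein gene regions in each; it changed no other call beyond 1.5 times. With same-numbered libraries of both ages as block, 122 regions passed for age before transplantation against 71, among them 1 member, Rps13 (-12.8 points, adjusted p = 0.0434). Deviations of such libraries correlated at 0.029 to 0.705 before and -0.386 to 0.277 after transplantation. They come from different donors, and the labels link them by number. Old and young pre 3 also shared a transposition day, as did old and young post 4. With transposition day as covariate 738 passed, with 2 members, Rpl3 and Rpl13a (12.4 points, adjusted p = 0.0392). In width that covariate gave 132 for age before, with 1 member, Rps2 (-0.92, adjusted p = 0.04), and 1 for age after. Day 2 alone held both ages before transplantation.

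Without the 3 shortest lists, area calls were 964 for age before (2 members), 7 for age after, 1354 for stage (3 members) and 11 for the interaction, and width calls 51 and 49 for age before and stage; more regions could be ranked. With peaks of area at least 400, area calls were 23 for age before, 63 for stage and 1 for the interaction, width calls for stage 0, and presence calls 0 for age after and 40 for stage. Log2 areas gave 1 interaction call, and width percentiles 7 for age before and 11 for stage. Limma on presence gave 2027 (5 members) for age after and 3487 (11 members) for stage. At gene ends alone the members were 52 in place of 96. Rps16, for age before, was -6.17 with the day covariate and, with each library left out, -0.77 (without old pre 2) to 7.26, against 3.85.

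Leaving out each library, area calls ran from 29 to 105 for age before, 94 to 221 for stage (members 0 to 1), 0 to 6 for the interaction and 0 to 0 for age after. Width calls ran from 0 to 7 for age before, 0 to 1 for age after and 0 to 10 for stage. Presence calls ran from 0 to 20 for age after, 34 to 71 for stage and 0 to 0 for age before. Members called were 0 to 0 in all but area for stage, where the 1 was Rpl28 without old post 3, old pre 1 or young pre 4, and Rps6 without old pre 3. The 3 largest area percentile differences per direction and comparison among lead regions were followed under the alternatives. Of these 524 values, 516 kept direction and side of the threshold. The count leaves out widths, Rps6 for stage, and Rpl4, Rpl8, Rpl17 and the distal Rps10 region.

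Read depth is unknown, lists differ in length several times over, and only regions with a peak in every library were ranked.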

Other observations

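Outside the listed genes, 2 regions of related lists passed for stage in area percentile with all 16 libraries, both lower after transplantation. The region of Rpsa, which encodes a further protein of the small subunit, averaged 14.8 in post and 27.6 in pre libraries and fell by 12.8 ± 2.63 points (limma adjusted p = 0.0175, SE from 8 libraries per stage). The region of Rack1, a scaffold protein bound to the small subunit, averaged 34.7 in post and 47.4 in pre libraries and fell by 12.7 ± 2.89 (adjusted p = 0.0281). In these lists 1 of 13 regions of other cytosolic ribosomal protein genes and 1 of 15 regions of translation factors and other TOP transcripts passed, where 3.86% of all regions did, and 0 of 27 regions of mitochondrial ribosomal protein genes and 0 of 14 of ribosome biogenesis genes. The median area percentile was 53.1 over the 13, 74.9 over the 15, 47.8 over the 27 and 29.4 over the 14, against 45.6 over the 21 regions of the listed genes.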
